A study of Mus musculus with 10 samples.

Results

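The genes described here control thyroid hormone inside the tissue: the deiodinases *Dio2* and *Dio3*, the receptors *Thra* and *Thrb*, the membrane transporter *Slc16a10* and the cytosolic binding protein *Crym*. They were picked by gene symbol for their known roles, and are 6 of the 29268 genes in the deposited table. All 6 had the same identifier and coordinates in the GENCODE M21 annotation of GRCm38. Reads were sufficient for the test across all genes in 5 of them, *Crym* being the exception.

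The study examined the uterus of HSD17B1TG mice before adenomyosis develops. HSD17B1TG females carry human *HSD17B1* cDNA, which encodes an enzyme that turns estrone into estradiol, under a chicken beta actin promoter with a CMV enhancer that drives it throughout the body. The line has the FVB/N background and is kept heterozygous. RNA from the uterus was sequenced from 5 mice of either genotype, each aged 4 months and each giving a single library. The methods do not say which part of the organ the RNA came from. Per the study's methods HSD17B1TG females do not cycle, and WT uteri for histology were taken at random cycle phases, so that genotype and cycle phase cannot be told apart. The p-values measure the spread between these mice. In RNA from mixed tissue, fewer cells of a type and less RNA per cell cannot be told apart. HSD17B1TG mice are written as TG1 to TG5 below, and WT mice as WT1 to WT5.

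The thyroid secretes mainly thyroxine (T4), a precursor with low affinity for its receptors. *Dio2* encodes the deiodinase that converts T4 to the active hormone T3 inside the cell, and *Dio3* encodes the deiodinase that inactivates both T4 and T3, so the balance between them sets how much T3 reaches the nucleus. Both enzymes are known from the rodent uterus, where *Dio3* is abundant in the decidua of pregnancy. Thyroid hormone receptors alpha and beta, encoded by *Thra* and *Thrb*, bind DNA with or without hormone, usually together with a retinoid X receptor.

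Both deiodinases are selenoproteins, in which a TGA codon inside the reading frame is read as selenocysteine at the active site. The coding sequence around that codon is shown for the pair compared below, and for *Dio1*, the third enzyme of the family, on the coding strand from GENCODE M21 (GRCm38), with the TGA in capitals. The *Dio1* window lies at chr4:107297667-107297735 on the minus strand, the *Dio2* window at chr12:90729790-90729858 on the minus strand and the *Dio3* window at chr12:110279706-110279774 on the plus strand, all in coding exons.
Dio1: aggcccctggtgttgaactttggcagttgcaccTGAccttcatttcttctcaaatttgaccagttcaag
Dio2: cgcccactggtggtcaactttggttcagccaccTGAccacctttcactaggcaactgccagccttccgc
Dio3: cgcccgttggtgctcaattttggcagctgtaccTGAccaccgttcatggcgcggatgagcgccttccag
The codon is number 126 of 257 in *Dio1*, 130 of 266 in *Dio2* and 170 of 304 in *Dio3*, and *Dio2* has another TGA in its reading frame, at codon 263, which is not shown. Over these 69 bases *Dio2* and *Dio3* shared 45 (65.2%), *Dio1* and *Dio3* shared 40, and *Dio1* and *Dio2* shared 37.

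The promoter windows of both deiodinases are shown because their fold changes between the genotypes had opposite signs, although neither passed in edgeR. RefSeq (GRCm38.p6) held windows of 250 bases before and 50 bases after a start site for 4 of the 6 genes, 5 windows in all. The *Dio2* window is chr12:90738989-90739288 on the minus strand, and the *Dio3* window is chr12:110278980-110279279 on the plus strand. RefSeq places the *Dio2* start upstream of the gene in the deposited table and the *Dio3* start inside it. Capitals mark matches on either strand to motifs searched: the cAMP response element TGACGTCA, the binding box of the general factor TBP with letters TATAAA, and the Sp1 box with letters GGGCGG.
Dio2 promoter: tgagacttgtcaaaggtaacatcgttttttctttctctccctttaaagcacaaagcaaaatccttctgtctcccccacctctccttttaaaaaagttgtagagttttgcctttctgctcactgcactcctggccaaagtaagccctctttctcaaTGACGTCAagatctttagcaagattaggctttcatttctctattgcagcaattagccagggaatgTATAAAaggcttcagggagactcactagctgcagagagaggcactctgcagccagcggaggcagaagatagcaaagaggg
Dio3 promoter: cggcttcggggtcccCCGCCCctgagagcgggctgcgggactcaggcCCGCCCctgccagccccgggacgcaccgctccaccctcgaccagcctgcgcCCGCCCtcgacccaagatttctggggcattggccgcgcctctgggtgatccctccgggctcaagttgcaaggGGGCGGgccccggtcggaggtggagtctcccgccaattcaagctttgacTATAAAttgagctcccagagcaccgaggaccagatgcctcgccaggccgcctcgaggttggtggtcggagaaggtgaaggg
The *Dio2* window held TGACGTCA 95 bases before the start, a motif found in 1.79% of 32851 promoter windows of the same length, and TATAAA 30 bases before it. The *Dio3* window held TATAAA, found in 13.6% of windows, 31 bases before the start, and 4 copies of GGGCGG, found in 35.7%. The *Slc16a10* window and the first *Thrb* window held 3 copies of GGGCGG each, of which a pair overlapped in *Thrb*. The letters of an estrogen response element (GGTCANNNTGACC, 0.07% of windows), of a progesterone or glucocorticoid response element (GNACANNNTGTNC, 0.475%) and of a direct repeat thyroid response element (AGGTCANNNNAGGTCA, 0.0152%) were not in any of the 5 windows. A match is a description of the letters only.

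Library totals ran from 14817228 counts (WT3) to 23271988 (WT1), and 3 counts in the smallest library equal 0.202 CPM (counts scaled to library size). Mitochondrial transcripts made up 1.94% to 7.57% of counts in HSD17B1TG and 2.58% to 3.37% in WT. The human transgene is not a gene of the mouse annotation, and mouse *Hsd17b1* stood at 0.992 ± 0.291 FPKM (fragments scaled to gene length and library size, mean ± SD, n = 5) in HSD17B1TG and 0.918 ± 0.375 in WT, which checks nothing about the transgene. Markers of uterine epithelium (12 genes), smooth muscle, stroma, endothelium and leucocytes (10 genes each) had reads in all 10 mice. The summed epithelial markers had a median of 2496 FPKM (813 to 3618) in HSD17B1TG and 865 (579 to 1816) in WT (exact permutation p = 0.0476), with all 12 higher on average. The stromal sum had a median of 1311 FPKM (668 to 2719) against 2491 (2173 to 2936; exact permutation p = 0.0397), with 9 of 10 lower. The endothelial sum ran from 29.8 to 111 FPKM in HSD17B1TG and from 69.7 to 177 in WT, with 9 of 10 markers lower (p = 0.0873, exact permutation test). The smooth muscle sum ranged from 918 to 7660 FPKM in HSD17B1TG and from 438 to 5980 in WT (p = 0.333, exact permutation test), with all 10 markers higher on average. The leucocyte sum ranged from 84.1 to 110.4 FPKM in HSD17B1TG and from 67.7 to 149.9 in WT (p = 0.675, exact permutation test), with 9 of 10 lower. Few single markers passed an adjusted p of 0.05 in edgeR (6.16% of all genes did). Those passing were 1 epithelial marker as higher, 4 stromal markers as lower and 1 leucocyte marker as higher. No smooth muscle or endothelial marker passed. The markers of ciliated oviduct cells summed to 9.64 FPKM at most, with *Foxj1*, *Dnah9* and *Tekt1* at 0 in at least 1 mouse. TG1 stood apart from the other HSD17B1TG mice, with the lowest epithelial sum and the highest smooth muscle, stromal and endothelial sums of its group.

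Of the 5 genes tested, 0 passed an adjusted p of 0.05 in the quasi-likelihood test of edgeR, against 6.16% of the 16993 genes tested. An unadjusted p under 0.05 was found for 3, *Dio2*, *Thrb* and *Slc16a10*, against 26.1% of all genes tested. DESeq2 passed 2, *Dio2* and *Thrb*, against 12.9% of its genes, and limma passed 0 with voom weights (19.3% of all genes) and 0 on log2(FPKM + 1) (6.67% of all genes). In none of the 6 did the FPKM ranges of the genotypes separate, against 6.69% of genes tested. The median log2 fold change of all genes tested was 0.00. Among the 6 genes and the ratios of *Dio2* to *Dio3* and of *Thra* to *Thrb*, only the latter ratio separated the genotypes. *Thra* was 1.37 to 4.49 times as high as *Thrb* in HSD17B1TG and 5.11 to 11.8 times in WT, without overlap. The share of all gene pairs whose ratio separates in this way was not computed.

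**Figure D1:**
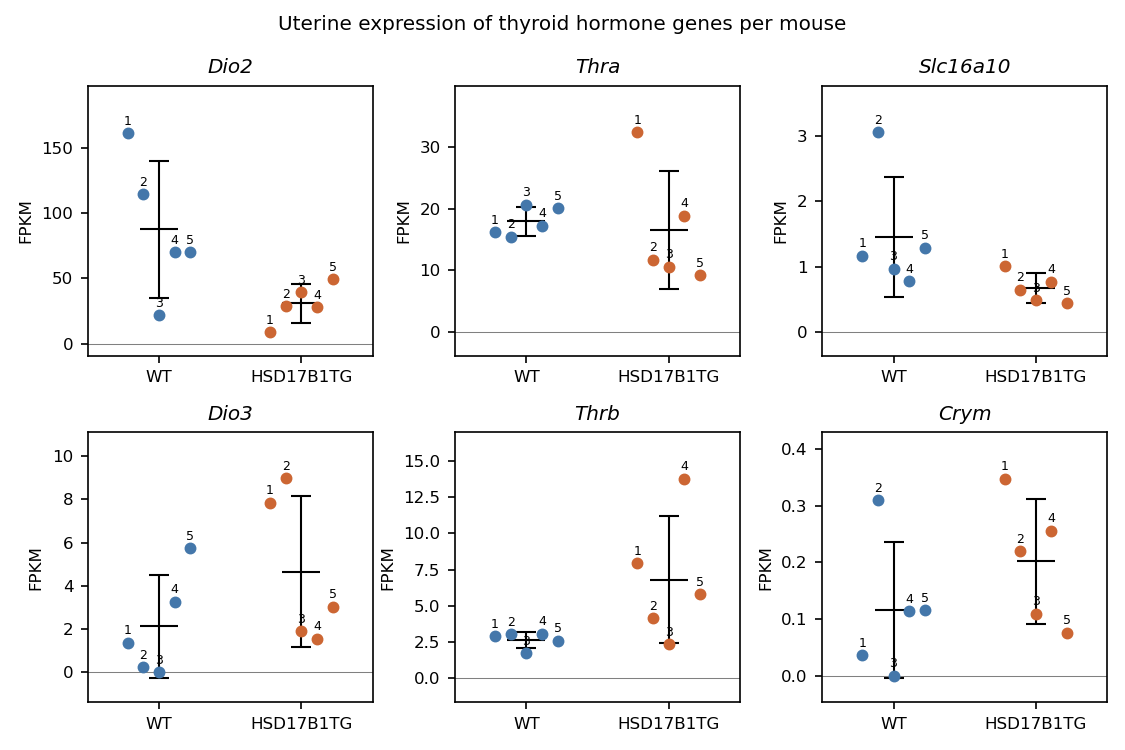
FPKM (linear axes from 0) of the 6 genes in each mouse, WT in blue and HSD17B1TG in orange, numbered by mouse; bars are the mean ± SD of 5 mice. *Dio2* and *Slc16a10* lay mostly lower and *Thrb* mostly higher in HSD17B1TG, and no panel shows full separation.

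*Dio2*, the T4-activating deiodinase (ENSMUSG00000007682, chr12:90724552-90738438, minus strand), had the highest mean of the 6 in both genotypes. Its FPKM was 8.86, 28.9, 39.6, 27.9 and 49.3 in TG1 to TG5, and 161, 114, 21.9, 69.8 and 69.9 in WT1 to WT5. All WT mice but WT3 lay above every HSD17B1TG mouse. The WT mean was 2.83 times the HSD17B1TG mean. The log2 fold change (HSD17B1TG relative to WT throughout) was -1.50 (SE 0.52), which did not pass in edgeR (adjusted p = 0.102) and passed in DESeq2 (adjusted p = 0.0340). The exact permutation test on log2(FPKM + 1) gave p = 0.0556. Without TG1 and WT3, a setting chosen after the values were seen, the fold change was -1.51 and the edgeR adjusted p was 0.0368. A noncoding gene on the other strand, *Gm26512*, shares 100 exonic bases (1.72%) with *Dio2*. Its FPKM was 0.223 ± 0.0473 in HSD17B1TG and 0.514 ± 0.191 in WT (log2 fold change -1.20, SE 0.35, edgeR adjusted p = 0.0635), and reads in the shared bases cannot be told apart unless strand was counted, which is not given in the sources used here.

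*Dio3*, the inactivating deiodinase (ENSMUSG00000075707, chr12:110279068-110281097, plus strand), had the widest spread of the genes tested. HSD17B1TG mice had 7.85, 8.98, 1.91, 1.56 and 3.04 FPKM, and WT mice 1.38, 0.233, 0, 3.27 and 5.75 FPKM. The ranges overlapped broadly, with TG1 and TG2 above all WT mice. In WT3 *Dio3* had 0 reads, which at that depth allows up to 3 counts, and WT2 had 9 reads against 239 in WT5. The SD of log2 CPM across WT mice was 2.77, at percentile 99.7 of all genes tested, and 1.14 across HSD17B1TG mice. Its log2 fold change was 1.13 (SE 1.02), with an adjusted p of 0.519 in edgeR and 0.504 in DESeq2. The estimate moved by more than 1.5 times with the setting: it was 2.93 with limma voom (adjusted p = 0.111), 1.90 in edgeR without WT5, 0.75 without TG2, and 0.55 without TG1 and WT3 together.

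The ratio of *Dio2* to *Dio3* was taken in each mouse on the log2 FPKM scale (0.01 added to each gene), as the measure of activating against inactivating transcript. It was 0.17, 1.68, 4.37, 4.15 and 4.01 in TG1 to TG5, and 6.85, 8.88, 11.10, 4.41 and 3.60 in WT1 to WT5. WT1 to WT4 lay above all HSD17B1TG mice, and WT5 lay below TG3, TG4 and TG5. As a linear ratio *Dio2* was 1.13 to 20.7 times *Dio3* in HSD17B1TG, and 12.2 to 490 times in the 4 WT mice with *Dio3* reads. The group means were 2.88 ± 1.86 and 6.97 ± 3.11 log2 units (n = 5), a difference of -4.09 that did not pass the two-sided exact permutation test (p = 0.0556). The value in WT3 depends on the constant added, since *Dio3* was at 0 there. With 1 added in place of 0.01 the difference was -2.38 and passed (p = 0.0317, exact permutation test). Leaving out WT4 (-4.73, exact permutation p = 0.0317) or WT5 (-4.93, exact permutation p = 0.00794) also brought it past the threshold, whereas leaving out WT3 gave -3.06 (exact permutation p = 0.0952), and leaving out TG1 and WT3 together gave -2.38 (exact permutation p = 0.20).

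*Thra* (ENSMUSG00000058756, chr11:98740638-98769006, plus strand) encodes thyroid hormone receptor alpha, together with a splice form that does not bind T3, and gene-level counts do not separate these forms. Its FPKM was 32.4, 11.7, 10.6, 18.8 and 9.20 in HSD17B1TG and 16.2, 15.5, 20.7, 17.2 and 20.1 in WT. The WT mice were close together, whereas TG1 lay above all of them and TG2, TG3 and TG5 below. The SD of log2 CPM was 0.74 in HSD17B1TG and 0.19 in WT, beside medians over all genes tested of 0.44 and 0.37. Its log2 fold change was -0.12 (SE 0.32, edgeR adjusted p = 0.843). It was -0.51 without TG1 and 0.031 without TG5, so that the direction is not set by these data. At its end *Thra* shares 263 of its exonic bases (5.70%) with *Nr1d1* on the other strand. *Nr1d1*, a heme-binding repressor of the circadian clock, had 26.8 ± 17.0 FPKM in HSD17B1TG and 13.3 ± 3.75 in WT (log2 fold change 1.01, edgeR adjusted p = 0.162).

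*Thrb*, which encodes thyroid hormone receptor beta (ENSMUSG00000021779, chr14:17660261-18038090, plus strand), had 7.96, 4.16, 2.36, 13.8 and 5.82 FPKM in HSD17B1TG. In WT it had 2.90, 3.03, 1.75, 3.09 and 2.60 FPKM. All HSD17B1TG mice but TG3 lay above every WT mouse. The HSD17B1TG mean was 2.55 times the WT mean (6.81 ± 4.40 against 2.67 ± 0.549, n = 5). The log2 fold change of 1.35 (SE 0.40) had an edgeR adjusted p of 0.0665 and a DESeq2 adjusted p of 0.0153, and the exact permutation test of the single gene gave p = 0.0397. Without TG3 it was 1.54 and passed in edgeR (adjusted p = 0.0263), and without TG4, the highest mouse, it was 0.92.

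The log2 ratio of *Thra* to *Thrb* FPKM was 2.02, 1.49, 2.16, 0.45 and 0.66 in TG1 to TG5, and 2.48, 2.35, 3.55, 2.48 and 2.95 in WT1 to WT5. Every HSD17B1TG uterus was below every WT uterus. TG1, which had the highest *Thra* of all mice, also had the second highest *Thrb* and so did not stand apart. The means were 1.36 ± 0.777 and 2.76 ± 0.498 log2 units (n = 5), a difference of -1.40 with p = 0.00794 in the two-sided exact permutation test, the smallest p that 5 against 5 mice allow. With each mouse left out in turn the difference was -1.60 to -1.18 (exact permutation p from 0.00794 to 0.0238). The epithelial and stromal marker sums also differed between the genotypes, and their part in this result was not tested. Neither receptor separated the genotypes alone.

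**Figure D2:**
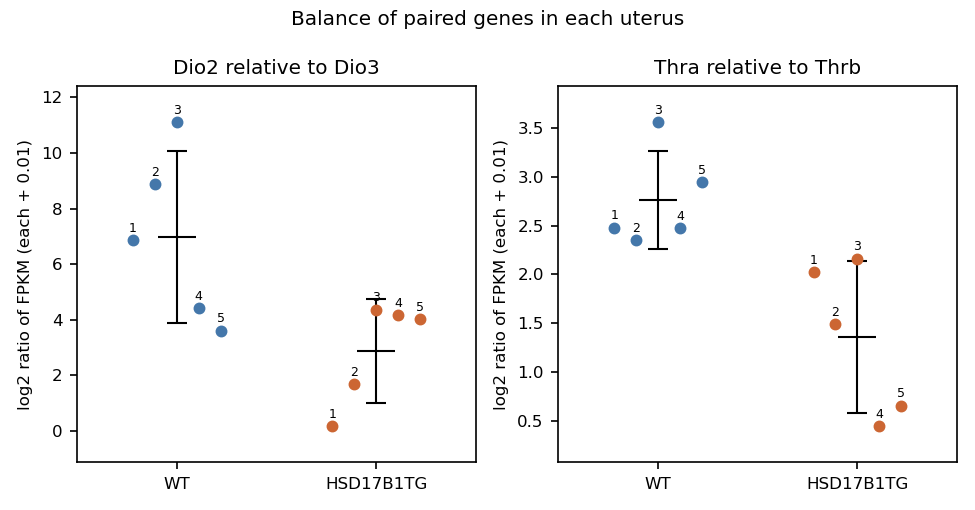
Log2 ratio of FPKM in each mouse for *Dio2* over *Dio3* (left) and *Thra* over *Thrb* (right), WT in blue and HSD17B1TG in orange, numbered by mouse; bars are the mean ± SD of 5 mice. The genotypes overlap on the left, where WT3 rests on a *Dio3* count of 0, and do not overlap on the right.

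*Slc16a10* encodes MCT10, a transporter of aromatic amino acids and of T3 (ENSMUSG00000019838, chr10:40033532-40142258, minus strand). Its FPKM was 1.01, 0.649, 0.484, 0.767 and 0.437 in HSD17B1TG and 1.17, 3.06, 0.969, 0.777 and 1.29 in WT. All HSD17B1TG mice but TG1 lay below every WT mouse, and WT2 was far above the rest. The log2 fold change was -1.12 (SE 0.40, edgeR adjusted p = 0.109, DESeq2 adjusted p = 0.0505), with p = 0.0317 in the exact permutation test of the single gene. Without WT2 it was -0.68 (edgeR adjusted p = 0.239).

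*Crym* encodes mu-crystallin, which binds T3 in the cytosol (ENSMUSG00000030905, chr7:120186380-120202111, minus strand). It had 22, 13, 7, 14 and 4 reads in TG1 to TG5 and 3, 20, 0, 8 and 8 reads in WT1 to WT5, at most 0.348 FPKM. The ranges overlapped, and the mean of log2(FPKM + 1) differed by 0.11 (exact permutation p = 0.286). DESeq2, which kept the gene, gave a log2 fold change of 0.81 (adjusted p = 0.574), so a difference was not detectable at this depth.

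**Figure D3:**
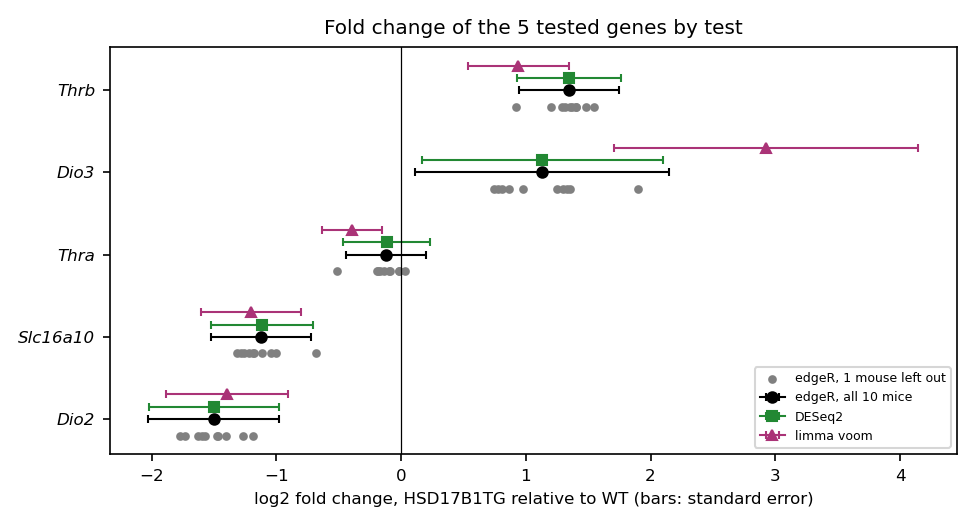
Log2 fold change (HSD17B1TG relative to WT, horizontal axis) of the 5 tested genes by edgeR (black circles), DESeq2 (green squares) and limma voom (purple triangles), bars being the standard error, with the edgeR values after leaving out each mouse in grey. *Dio2* and *Slc16a10* stayed below 0 and *Dio3* and *Thrb* above 0 in every setting drawn, while the *Thra* values ran from -0.51 to 0.031 when a mouse was left out.

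FPKM is scaled by transcript length, so levels of different genes can be ranked. In WT the mean order was *Dio2*, *Thra*, *Thrb*, *Dio3*, *Slc16a10*, *Crym*. The ranges of *Thrb* and *Dio3*, and of *Dio3* and *Slc16a10*, overlapped, and the other neighbours were apart in all 5 mice. HSD17B1TG mice had the same mean order, but here the ranges of *Dio2* and *Thra*, of *Thra* and *Thrb* and of *Thrb* and *Dio3* overlapped. *Dio2* exceeded *Thra* in 5 of 5 WT mice and in 4 of 5 HSD17B1TG mice, the exception being TG1.

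Within genotypes, the 6 genes were compared pair by pair on log2 CPM with each group's mean taken off (n = 10 mice, *Crym* left out and *Dio3os*, the transcript beside *Dio3*, added, 15 pairs). *Dio2* and *Thra* ran opposite to each other (r = -0.763, permutation p = 0.000278, adjusted p = 0.00208; rho = -0.733, permutation p = 0.000833, adjusted p = 0.00625). Without TG1 and WT3, the mice farthest from the median of *Dio2*, r was -0.62. *Dio3* and *Dio3os* varied together across mice (r = 0.981, permutation p = 0.000278, adjusted p = 0.00208; rho = 0.952, permutation p = 0.000625, adjusted p = 0.00625), and r was 0.944 without WT3 and WT5. The other 13 pairs did not pass the adjusted threshold, *Dio2* with *Dio3* among them (r = 0.232, permutation p = 0.591, adjusted p = 0.946; rho = -0.103, permutation p = 0.808, adjusted p = 0.975).

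The same measure against the 5 marker sums gave 25 relations. *Thra* followed the stromal sum (r = 0.923, permutation p = 0.000833, adjusted p = 0.0208; rho = 0.903, permutation p = 0.00215, adjusted p = 0.0538), and r was 0.809 without TG1 and TG5. It also followed the endothelial sum (r = 0.843, permutation p = 0.00222, adjusted p = 0.0226; rho = 0.830, permutation p = 0.00972, adjusted p = 0.0810; r = 0.808 without the same mice). *Thra* ran opposite to the epithelial sum (r = -0.819, permutation p = 0.00271, adjusted p = 0.0226; rho = -0.673, permutation p = 0.0283, adjusted p = 0.144), but r was -0.464 without TG1 and TG5, so this relation rests on them. *Dio2* against the stromal sum (r = -0.678, permutation p = 0.0158, adjusted p = 0.0985; rho = -0.758, permutation p = 0.00799, adjusted p = 0.0810; r = -0.732 without TG1 and WT3) did not pass, nor did *Dio3* against the smooth muscle sum (r = 0.747, permutation p = 0.0328, adjusted p = 0.137; rho = 0.733, permutation p = 0.0460, adjusted p = 0.192; r = 0.724 without WT3 and WT5). Within genotypes *Thrb* passed with no marker sum (adjusted p of r from 0.488 upwards). The part of tissue composition in the genotype values of any of these genes was not tested.

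**Figure D4:**
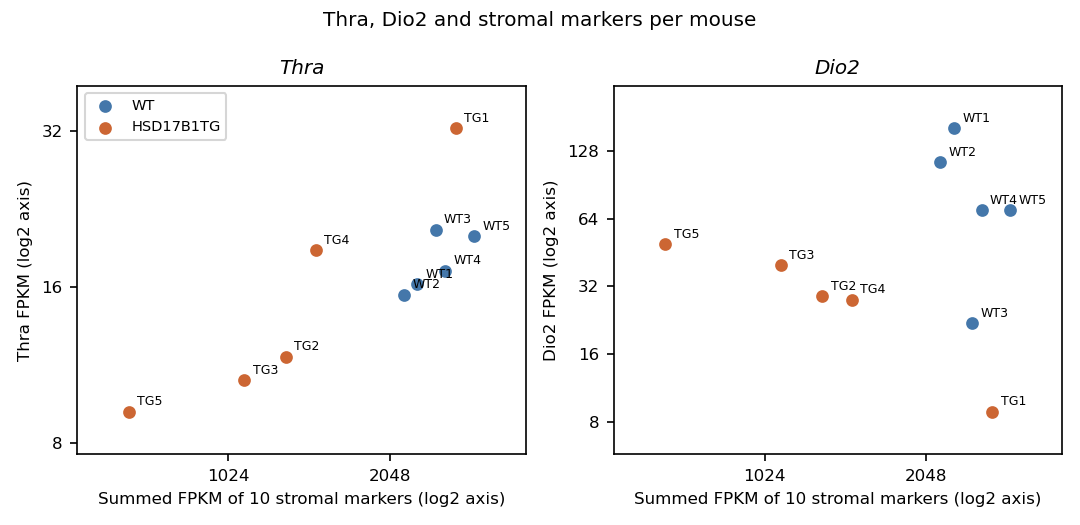
FPKM of *Thra* (left) and *Dio2* (right) against the summed FPKM of 10 stromal markers in each mouse (all axes log2), WT in blue and HSD17B1TG in orange. *Thra* was highest where the stromal sum was high, TG1 being the one HSD17B1TG mouse among the WT mice on the horizontal axis, and *Dio2* of TG1 was the lowest of all.

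The 3 protein-coding genes whose levels varied most like each member within genotypes were taken over 10 mice, as a description. They came from 12668 genes with mean FPKM above 1 in either genotype. The highest r of so many genes over 10 mice is high by selection, and no test was run. For *Dio2* they were *Mfsd5* (r = 0.967), *Senp3* (0.962) and *Lrrc8e* (0.961). For *Dio3* they were *Gapdhs* (r = 0.966), *Mef2d* (0.929) and *Adam33* (0.923). For *Thra* they were *Lrrc49* (r = 0.988), *Cavin1* (0.983) and *Fuz* (0.979), and for *Thrb* *Yaf2* (r = 0.963), *Neil2* (0.949) and *Ppm1a* (0.948). For *Slc16a10* they were *Nudt11* (r = 0.957), *Fam193a* (0.910) and *Tmem64* (0.896).

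Beyond the 6 genes, 60 symbols of the thyroid hormone pathway were listed, of which 57 were in the table and 47 were tested. In edgeR 1 was higher in HSD17B1TG (3.34% of all genes tested were) and 2 were lower (2.81% of all genes were), which together is 6.38% of the list beside 6.16% of all genes. With DESeq2 3 were higher and 3 lower (7.31% and 5.64% of its genes). The median log2 fold change over the 47 genes was 0.09, beside 0.00 over all genes. Genes next to *Dio3* on chromosome 12 form a list of their own.

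Among transporters and carriers (8 of 16 symbols tested, median log2 fold change -0.13), *Slc7a8* fell. It encodes LAT2, the light chain of an amino acid exchanger that also moves iodothyronines. Its FPKM was 9.89, 4.43, 4.26, 5.98 and 2.64 in HSD17B1TG and 15.9, 7.68, 15.3, 12.6 and 13.7 in WT. Only TG1 overlapped WT, through WT2. The log2 fold change was -1.27 (SE 0.33, edgeR adjusted p = 0.0471). It passed in 2 of the 10 fits that left out a mouse, without TG1 (-1.59, adjusted p = 0.0139) and without WT4 (-1.28, adjusted p = 0.0413), and the adjusted p reached 0.109 in the other fits. In the other direction, *Slco4a1*, an organic anion transporter that carries thyroid hormones, and *Tshr*, the receptor of thyrotropin, are given after their values were seen. *Slco4a1* had a log2 fold change of 1.84 (SE 0.63, edgeR adjusted p = 0.0962) and passed with DESeq2 (adjusted p = 0.0240) and limma voom (adjusted p = 0.00726). *Tshr* had one of 1.05 (SE 0.34, edgeR adjusted p = 0.0801) and likewise passed with DESeq2 (adjusted p = 0.0333) and limma voom (adjusted p = 0.0215). *Ttr*, which encodes the carrier transthyretin, was singled out after its counts were seen, and had too few reads for the edgeR test. It had 0 reads in all 5 HSD17B1TG libraries, which allows up to 3 counts in each, and 12, 18, 302, 2 and 30 reads in WT1 to WT5, so that most of its WT reads came from WT3.

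Among partners of the receptors (15 of 16 tested, median 0.09), 1 gene passed, 6.67% of the list beside 6.16% of all genes. *Ncoa1*, which encodes the coactivator SRC-1, fell. Its FPKM was 3.92, 3.79, 3.80, 3.74 and 3.60 in HSD17B1TG and 6.10, 5.33, 6.06, 4.30 and 5.15 in WT. The genotypes did not overlap (log2 fold change -0.52, SE 0.12, edgeR adjusted p = 0.0368). It passed in the fits without TG1, TG3 or WT4 and in no other fit without a mouse, where the adjusted p reached 0.0855. In this list 4 of 15 genes did not overlap, beside 6.69% of all genes tested. The others are given after their values were seen. *Ncoa3* (log2 fold change 0.42, edgeR adjusted p = 0.0797) and *Ep300* (0.23, edgeR adjusted p = 0.213) were higher in HSD17B1TG. *Med1* (-0.23, edgeR adjusted p = 0.167) was lower.

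Among genes that support the deiodinases (13 of 16 tested, median 0.14), which make selenoproteins or control the turnover of the enzymes, *Usp20* rose. It encodes a deubiquitinase known to act on the *Dio2* protein. Its FPKM was 3.78, 4.15, 4.03, 3.14 and 4.95 in HSD17B1TG and 2.65, 2.36, 2.45, 2.71 and 2.33 in WT. The genotypes did not overlap (log2 fold change 0.68, SE 0.14, edgeR adjusted p = 0.0268). It passed without TG1, TG3, TG4 or WT4, and its adjusted p reached 0.0747 in the other fits without a mouse. *Dio1*, the other activating deiodinase, is given after its values were seen. It stood at 0.321 ± 0.312 FPKM in HSD17B1TG and 0.930 ± 1.19 in WT (log2 fold change -1.53, SE 0.92, edgeR adjusted p = 0.320). The fold change was -0.40 without WT2 and -2.24 without TG2.

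Of genes known to respond to T3 in other tissues (11 of 12 tested, median 0.11), 0 passed in edgeR (6.16% of all genes), 1 had an unadjusted p under 0.05 (26.1% of all genes) and 0 passed in DESeq2 (12.9% of all genes). With limma voom, which passed 19.3% of all genes, *Me1* and *Gpd2* passed (adjusted p = 0.0387 for each). The 3 with the smallest p were *Gpd2*, mitochondrial glycerol phosphate dehydrogenase (log2 fold change 0.90, edgeR adjusted p = 0.134), *Me1*, malic enzyme (0.91, adjusted p = 0.236), and *Nrgn*, neurogranin (-1.37, adjusted p = 0.241). Without WT4 the fold change of *Me1* was 1.51 and passed in edgeR (adjusted p = 0.0201), and without WT3 that of *Nrgn* was -0.47 (edgeR adjusted p = 0.676). *Klf9*, a zinc finger factor that T3 induces in many cells, is named after its value was seen and had a log2 fold change of -0.30 (edgeR adjusted p = 0.715).

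*Dio3* lies at the end of an imprinted domain of chromosome 12, in which *Meg3*, *Rian* and *Mirg* are noncoding RNAs known to be made from the maternal chromosome, and *Dlk1*, *Rtl1* and *Dio3* are made mainly from the paternal chromosome. The counts carry no information on the allele. Of 9 neighbours listed, 7 were tested, 1 passed in edgeR (6.16% of all genes did) and 5 had an unadjusted p under 0.05 (26.1% of all genes), with a median log2 fold change of -1.46. *Rian*, whose end lies 617 kb before *Dio3*, fell. Its FPKM was 2.11, 1.09, 1.09, 0.701 and 0.448 in HSD17B1TG and 2.92, 4.64, 4.33, 2.11 and 5.77 in WT. All HSD17B1TG mice but TG1 were below every WT mouse, and the log2 fold change was -1.87 (SE 0.41, edgeR adjusted p = 0.0322). It passed without TG1, TG3 or WT4, and the adjusted p reached 0.0783 in the other fits without a mouse.

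The other genes of the domain are given after their values were seen. *Meg3* stood at 1.89 ± 1.06 FPKM in HSD17B1TG and 5.56 ± 2.38 in WT (log2 fold change -1.56, edgeR adjusted p = 0.0581), and *Mirg* had a log2 fold change of -2.13 (edgeR adjusted p = 0.0856). *Dio3os*, a noncoding gene read away from *Dio3* on the other strand with 895 bases between them, had 21.0, 32.9, 5.91, 8.88 and 20.2 FPKM in HSD17B1TG. In WT it had 2.20, 0.438, 0, 5.64 and 8.47 FPKM. All HSD17B1TG mice but TG3 lay above every WT mouse. With a log2 fold change of 2.41 (SE 0.99), the edgeR adjusted p was 0.155, and the exact permutation test of the single gene gave p = 0.0159. So *Dio3* and *Dio3os* had positive fold changes that did not pass in edgeR, beside negative ones in *Begain* (-1.46), *Meg3*, *Rian* and *Mirg*, of which *Rian* passed. The calls depended on the test. *Meg3* passed with DESeq2 (adjusted p = 0.00870) and limma voom (adjusted p = 0.010), as did *Mirg* (adjusted p = 0.010 and 0.0195). *Dio3os* passed with limma voom (log2 fold change 4.25, adjusted p = 0.0387) and not with DESeq2 (adjusted p = 0.150), and *Dio3* passed with neither. *Rtl1*, which had too few reads for the edgeR test, was at 0 to 0.0169 FPKM in HSD17B1TG (0 to 2 reads) and at 0.0331 to 0.177 FPKM in WT (4 to 23 reads), below in every HSD17B1TG mouse (DESeq2 adjusted p = 0.00322). *Dlk1* had at most 3 reads in any mouse.

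**Figure D5:**
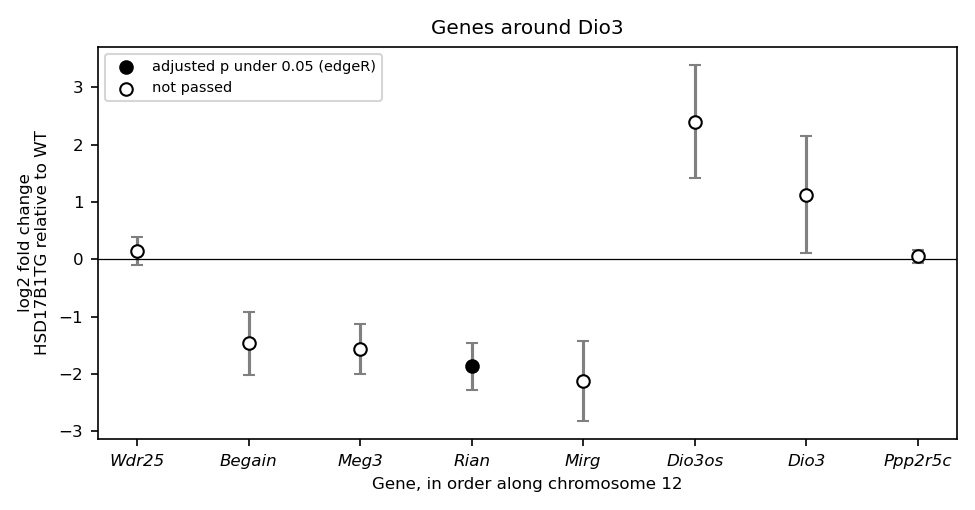
Log2 fold change (HSD17B1TG relative to WT, vertical axis) with its standard error for the tested genes around *Dio3*, in their order along chromosome 12 and not to distance; the filled point passed an edgeR adjusted p of 0.05. Values were below 0 from *Begain* to *Mirg* and above 0 at *Dio3os* (2.41) and *Dio3* (1.13), and the outermost genes lay near 0.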

How the data were processed

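Per the study's methods, paired-end reads of 150 bp from uterine RNA were mapped by the authors with HISAT2 (version 2.0.5 per the submitters' processing notes) to the Ensembl 94 mouse genome; how reads were assigned to genes, and whether by strand, is not given in the sources used here. The deposited table holds raw read counts, FPKM (counts scaled by gene length and library size by the authors) and a normalized count signal. Counts were tested and FPKM used for levels and ratios. The authors' fold changes, p-values, list of called genes and enrichment tables were not used. No pair of mice shared over 0.938% equal counts, so no library was present more than once.

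Differential expression used edgeR 4.0.16 (filterByExpr, TMM, quasi-likelihood test, Benjamini-Hochberg over all 16993 genes tested, threshold 0.05) in R 4.3.3, checked on simulated counts. Alternatives were other size factors, no filter, DESeq2 1.42.0, limma 3.58.1 with voom weights or on log2 FPKM, each mouse left out and, chosen after the data were seen, TG1 and WT3 left out together. Single values had two-sided exact permutation tests over the 252 assignments of mice, and correlations within genotypes had the 14400 permutations within both groups (scipy 1.17.1).

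Mice are numbered within genotype in accession order. The genes and lists were chosen with earlier results of these data known. Named genes were the 6 members, pathway genes that passed or else the 3 smallest p of a list, genes overlapping a member and *Hsd17b1*. The 3 most similar genes per member were also named, where a mean FPKM above 1 in either genotype was enough for both. Others are marked as chosen after their values were seen. The result for 1 listed gene is not reported here.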

Additional observations from a re-analysis of the deposited data

Results flagged for a closer look

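In 4 of 70 groups of 5 mice examined, a mouse stood far from the others of its genotype by Dixon's criterion. For normally distributed values chance alone meets it in about 1 of 20 groups, and 4 of 70 is near that share. Whether FPKM values are so distributed was not tested, and groups of genes picked for likeness are not independent. *Slc16a10* was 3.06 FPKM in WT2 against 0.777 to 1.29 in the other WT mice. *Nudt11* had 2.76 FPKM in WT2 against 0.510 to 1.09 in the other WT mice. It was picked for its likeness to *Slc16a10* in these same mice, so this is not a separate observation. *Nrgn* was 16.8 FPKM in WT3 against 1.53 to 4.07 in the other WT mice. *Fam193a*, likewise picked for its likeness to *Slc16a10*, was 6.94 FPKM in TG1 against 5.64 to 5.83 in the other HSD17B1TG mice.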

How the results depend on the processing

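Of 132 values of the 6 genes and both ratios under other settings, 124 kept their direction and side of the threshold, 7 passed it and 1 reversed. The fold change of *Dio2* passed with DESeq2 (-1.50, adjusted p = 0.0340) and without TG1 and WT3 together (-1.51, edgeR adjusted p = 0.0368), a setting chosen after the data were seen. That of *Thrb* passed with DESeq2 (1.35, adjusted p = 0.0153), and with a mouse left out it was 0.92 to 1.54, passing without TG3. That of *Dio2* with a mouse left out was -1.77 to -1.19. *Thra* ran from -0.51 without TG1 to 0.031 without TG5 (edgeR adjusted p = 0.967), where it reversed. The *Dio2* to *Dio3* difference passed with 1 added to each FPKM (-2.38) and without WT4 or WT5, its range with a mouse left out being -4.93 to -3.06. The *Thra* to *Thrb* difference passed under every setting run. The causes were not tested.

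The count of all genes passing, 1046 in edgeR, was 2811 with DESeq2 and 3283 with limma voom. It was 76 to 2387 with a mouse left out (2094 without TG1, 128 without TG2, 171 without TG4, 76 without TG5, 299 without WT1, 108 without WT2, 162 without WT3, 2387 without WT4, 118 without WT5). The 4 genes passing among the pathway lists and the *Dio3* neighbours (*Rian* is the neighbour) became 10 with DESeq2 and 15 with limma voom, and 0 to 10 with a mouse left out: 0 without TG2, TG5, WT1, WT2, WT3 or WT5, 1 without TG4, 8 without TG1 and 10 without WT4.

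No paired analysis was possible because the first number in each label occurs once, and the second, which is not explained, is shared between the genotypes in a single pair of mice. Depth limits *Crym* and, in WT2 and WT3, *Dio3*.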
